A study of Caenorhabditis elegans with 8 samples.

Results

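The col- genes are the largest named group of cuticle collagen genes in Caenorhabditis elegans, and they are described here one by one. A gene was taken as a member when its WormBase symbol begins with col-, which 158 of the 20389 genes in the deposited count table do. The 158 genes lie on all 6 chromosomes, with 22 on I, 24 on II, 12 on III, 41 on IV, 31 on V and 28 on X, and RefSeq lists 2 of them, col-66 and col-182, as pseudogenes. All 8 labelled libraries came from whole worms of strain VC199, which carries sir-2.1(ok434) IV, a null allele of a histone deacetylase gene, so both stages share this genotype and no wild type library entered any comparison. The 4 larvae libraries were made from worms grown for 24 hours on plates after hatching, which the labels call L3 and the methods of the study L2/L3. The 4 embryo libraries were made from mixed embryos that were freed from parents of mixed age with bleach. Messenger RNA was selected by its poly(A) tail, and the libraries kept the strand and were sequenced from a single end.

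The cuticle of the worm is a collagen coat that the epidermis secretes under the old one before each molt. The first cuticle is made in the late embryo, and a new one is made at the end of each larval stage. Cuticle collagens are short chains with interrupted Gly-X-Y repeats that fold as trimers, are cut outside the cell and are crosslinked through tyrosines. Transcripts of single collagen genes come and go within each molting cycle, each gene at its own time.

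The larvae libraries held 13687095 to 22419153 gene counts and the embryo libraries 16300947 to 31292935. Counts are given as CPM (counts per 1e+06 counts of the library), scaled by TMM factors, which set the libraries to a common level through the bulk of genes. Summed markers of embryos (hch-1, pie-1, mex-5, end-1, end-3 and pos-1) reached 12.2 to 23.7 CPM in larvae and 1008 to 1869 CPM in embryos, so each library fitted its labelled stage. Some libraries stood apart within their stage. Summed markers of the molting cycle (mlt-10, mlt-11, noah-1 and nas-37) were at 7615 CPM in larvae replicate 1, against 1049 to 2440 CPM in the other larvae libraries. The embryo libraries had sums of 2359 to 2770 CPM. In larvae mlt-11, noah-1 and nas-37 were each highest in replicate 1, but mlt-10 was highest in replicate 3, at 287, 163, 301 and 184 CPM. The 6 vitellogenin genes, which encode adult yolk proteins, summed to 223 CPM in embryo replicate 2, against 2.84 to 16.6 CPM in the other embryo libraries. In RNA from whole worms, fewer cells that use a gene and less RNA per cell cannot be told apart.

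Most col- genes with enough counts to test were higher in larvae. Of the 109 members tested by edgeR's quasi-likelihood test, 75 (68.8%) were higher in larvae at a Benjamini-Hochberg adjusted p under 0.05, where 36.9% of all 13571 genes tested were. A further 9 members (8.26%) were lower in larvae, where 37.2% of all genes were, and 25 did not pass. The median log2 fold change of larvae over embryos was 2.87 for the members tested, with a range of -8.64 to 9.60, and -0.03 for all genes tested. Every larvae library was above every embryo library for 61 members (56.0%), where 33.3% of all genes had no such overlap, and every larvae library was below every embryo library for 9 members, where 35.6% of all genes were. The other 49 members had too few counts to be tested. With library totals in place of TMM factors, 63 members were higher and 9 lower, the median of all genes moved to -0.53 and that of the members to 2.36, and all genes divided into 3683 higher and 6607 lower, in place of 5004 and 5054.

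**Figure D1:**
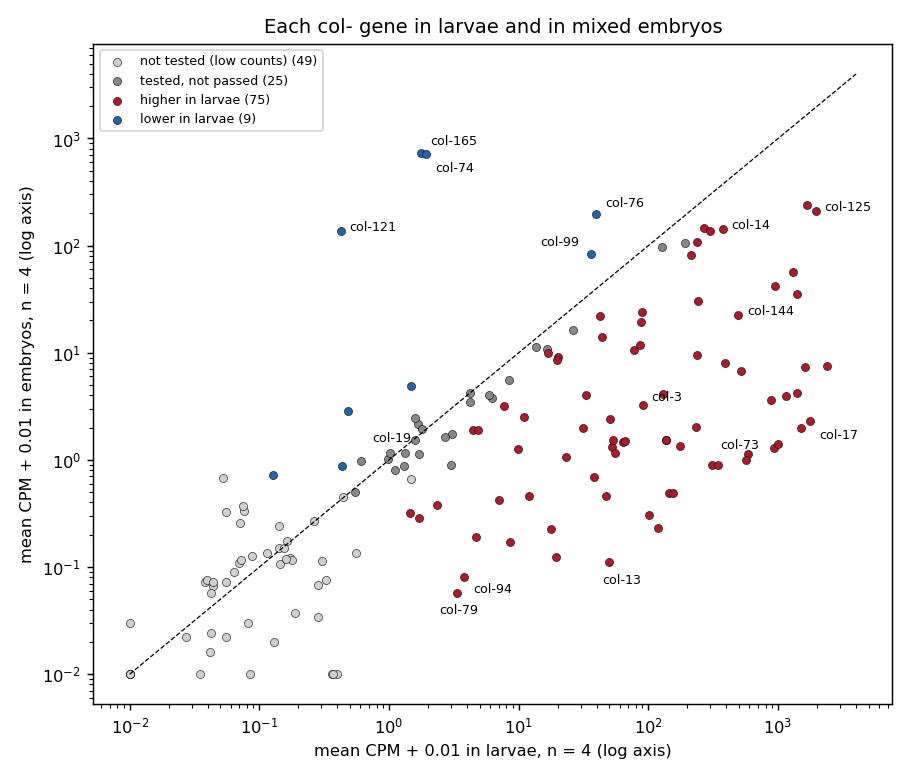
Mean CPM of each of the 158 col- genes over 4 larvae libraries (horizontal, log axis) and 4 embryo libraries (vertical, log axis), with 0.01 added. Each point is a gene and the dashed line marks equal levels: the 75 genes higher in larvae lie to its lower right, and col-165, col-74 and col-121 stand alone at the upper left.

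The largest rise was in col-17 (F11G11.10, chromosome II, 4866431 to 4867569 in the WS220 genome). It had 1692, 1725, 2531 and 1106 CPM in the 4 larvae libraries, against 2.41, 1.90, 3.29 and 1.53 CPM in the embryo libraries. The stages did not overlap, and replicate 3 was highest on both sides. The log2 fold change was 9.60 ± 0.386 (SE), 774-fold, with an adjusted p of 9.47e-09 in edgeR's test with Benjamini-Hochberg adjustment. Its neighbour col-73 (F11G11.12, chromosome II, 4872093 to 4873122) had 406, 588, 905 and 362 CPM in larvae, against 0.780, 1.13, 1.17 and 0.854 CPM in embryos. The same larvae library was highest and the same lowest as for col-17, and the rise was 580-fold. On the X chromosome, col-41 (T10B10.1, 15174969 to 15176411) had 1144, 1460, 2403 and 959 CPM in larvae, against 1.88, 1.90, 3.18 and 0.899 CPM in embryos. It too was highest in larvae replicate 3 and lowest in replicate 4, and it rose 766-fold.

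Other members rose as far but with another order of libraries. The gene col-147 (T06E4.4, chromosome V, 9632247 to 9633313) had 352, 924, 856 and 1584 CPM in larvae, against 1.90, 1.38, 1.23 and 0.585 CPM in embryos, a rise of 708-fold. For col-93 (W05B2.5, chromosome III, 10984456 to 10985509) the larvae libraries had 223, 1085, 778 and 1890 CPM and the embryo libraries 1.83, 1.66, 1.06 and 0.989 CPM, a rise of 700-fold. In both genes larvae replicate 4 was highest and replicate 1 lowest, and every embryo library lay far below every larvae library. Lower in level, col-142 (chromosome V, 6831146 to 6832237) had 48.2, 119.9, 115.0 and 194.1 CPM in larvae, against 0.366, 0.162, 0.167 and 0.180 CPM in embryos. The gene col-90 (C29E4.1, chromosome III, 7948773 to 7950002) differed from all of these, since larvae replicate 1 was its highest library, with 770.4, 578, 707 and 306 CPM in larvae against 0.658, 1.09, 2.17 and 0.540 CPM in embryos. The TPM gave smaller rises, at 422-fold for col-17, 421-fold for col-41, 342-fold for col-73, 342-fold for col-147 and 109-fold for col-93, which of these 5 was furthest below its fold in counts. With limma on log2(TPM + 1) the median of all genes moved to -0.72. Standard errors on the log2 scale for these 7 genes and col-13 ran between 0.386 for col-17 and 0.746 for col-13.

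**Figure D2:**
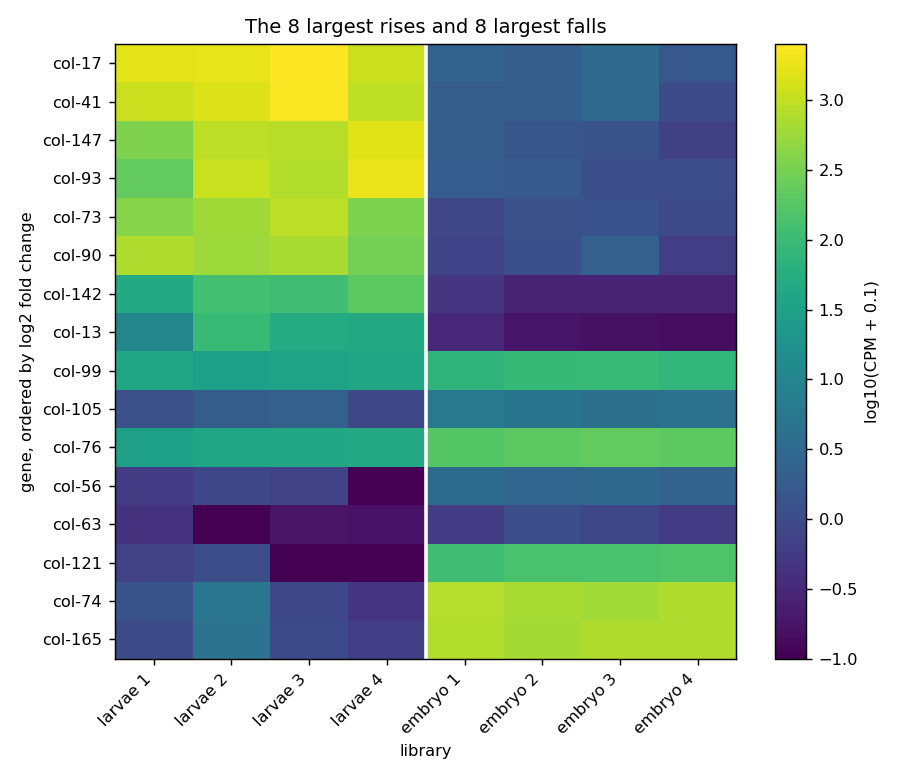
Level of the 8 members with the largest rise and the 8 with the largest fall (rows, by log2 fold change) in each larvae library (left of the white line) and embryo library (right), as the log10 of CPM with 0.1 added. The upper rows are bright in all 4 larvae libraries and dark in all 4 embryo libraries, and the bottom 3 rows, col-121, col-74 and col-165, are the reverse.

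A small set of collagens had nearly all of its transcripts in embryos. The gene col-165 (F14H12.1, chromosome X, 4353593 to 4354786) had 0.943, 4.60, 0.883 and 0.564 CPM in larvae, against 793, 636, 754 and 769.7 CPM in embryos. It was 400-fold higher in embryos, with a log2 fold change of -8.64 ± 0.603 (SE) and an adjusted p of 1.77e-07 (edgeR). For col-74 (ZK1248.2, chromosome II, 5830848 to 5831993) the larvae libraries had 1.29, 5.15, 0.815 and 0.376 CPM and the embryo libraries 828, 659, 633 and 752 CPM. That is a difference of 358-fold, and by the authors' TPM (which also divide by transcript length) col-165 and col-74 were the most abundant members in embryos, at means of 838 ± 106 and 823 ± 152 TPM (SD, n = 4 each). The third, col-121 (F56D5.1, chromosome IV, 9394601 to 9396201), had 7, 21, 0 and 0 counts in larvae, against 4613, 3376, 2516 and 3394 counts in embryos, and it was 306-fold higher in embryos. In larvae all 3 genes were highest in replicate 2. The hatching enzyme gene hch-1, an embryo marker, was also highest there, with 23, 60, 8 and 1 counts in the 4 larvae libraries. The other embryo markers were not. By CPM pos-1, end-1 and end-3 were highest in larvae replicate 1, and mex-5 and pie-1 in larvae replicate 3. The summed embryo markers were at 23.7, 17.5, 21.3 and 12.2 CPM in larvae replicates 1 to 4. The part of embryos in these residual counts was not tested. Without larvae replicate 2 the log2 fold changes were -9.86 for col-165, -9.80 for col-74 and -9.60 for col-121, in place of -8.64, -8.48 and -8.26.

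The remaining 6 members that fell did so by less. For col-76 (chromosome II, 8204290 to 8207522) the larvae libraries had 32.1, 40.6, 41.1 and 45.2 CPM and the embryo libraries 176, 201, 219 and 193 CPM. The 4 libraries of each stage lay close together, and the log2 fold change was -2.31 ± 0.158 (SE), with an adjusted p of 1.56e-07 (edgeR). The gene col-99 (chromosome IV, 138461 to 144950) encodes a membrane-spanning collagen and is not a secreted cuticle chain. It had 38.3, 31.9, 34.2 and 39.4 CPM in larvae, against 71.8, 90.5, 95.2 and 79.1 CPM in embryos, a log2 fold change of -1.23 ± 0.152 (SE). A group of weakly expressed genes fell as well: col-56, at 0.469 ± 0.327 CPM in larvae and 2.85 ± 0.491 CPM in embryos (SD, n = 4 each), col-105, at 1.47 ± 0.607 and 4.91 ± 0.765 CPM, and col-63, at 0.118 ± 0.153 and 0.710 ± 0.264 CPM. The ninth, col-64, had 5 to 9 counts in larvae and 16 to 35 in embryos, and its call was lost without larvae replicate 4, with the replicate block, with DESeq2 and in a test against a fold change of 2. Without larvae replicate 1 the log2 fold change of col-63 was -3.97, in place of -2.75.

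Strict absence in 1 stage was rare. A member was called larva-only when every larvae library had at least 1 CPM and every embryo library was under 0.2 CPM, and 2 members (1.27%) met this, as did 0.912% of all genes. None was embryo-only by the reverse rule, which 1.61% of all genes met. By the same limits 57 members (36.08%) were shared, with at least 1 CPM in all 8 libraries, where 49.03% of all genes were. A further 19 members (12.03%) were silent, with under 0.2 CPM in all 8, where 20.37% of all genes were. Another 80 members (50.63%) were intermediate, where 28.08% of all genes were. The larva-only gene col-79 (C09G5.3, chromosome II, 10703559 to 10704515) had 24, 95, 74 and 24 counts in larvae, against 0, 0, 1 and 3 counts in embryos. The other, col-94 (W05B2.1, chromosome III, 10986727 to 10987744), had 21, 124, 39 and 71 counts in larvae, against 4, 1, 1 and 2 counts in embryos. Both passed the test, but the TPM of col-94 averaged 1244 in larvae and 23.7 in embryos, so the TPM list it in embryos. The log2 fold change of col-79 was 6.22, but 5.59 without embryo replicate 1 and 7.48 without embryo replicate 4. Counting error alone moves such low counts, and the larva-only set grew to 4 genes when embryo replicate 1, 2 or 4 was left out.

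Shared members were not level between stages. Of the 57, 45 were higher in larvae, col-76 and col-99 were lower and 10 did not pass. The median log2 fold change of the shared members was 2.81, near the 2.82 of the 50 intermediate members that could be tested. At the high end of this class, col-125 (C29F4.1, chromosome IV, 11225483 to 11226497) had 614, 2730, 2701 and 1753 CPM in larvae, against 242, 156, 244 and 204 CPM in embryos. The lowest larvae library was still above the highest embryo library, and the gene rose 9.23-fold (adjusted p of 1.90e-05, edgeR). Examples of the 10 that did not pass, chosen after their values were seen, are col-48, with 59.1, 169, 208 and 71.4 CPM in larvae and 108, 88.8, 90.0 and 104 CPM in embryos, and col-109, with 84.6 to 364 CPM in larvae and 88.1 to 146 CPM in embryos. Neither passed the test, and in both the larvae libraries lay on both sides of the embryo libraries.

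Among the members long known in the field, col-14 (chromosome IV, 7753396 to 7754635) had 139.6, 649.9, 527 and 178 CPM in larvae, against 163, 131, 139 and 143 CPM in embryos. Larvae replicate 1 lay among the embryo libraries, and the rise of 2.59-fold (adjusted p of 0.0103, edgeR) was lost with library totals. The gene col-34 had 57.0, 88.8, 145 and 65.1 CPM in larvae, against 25.4, 21.5, 21.8 and 26.8 CPM in embryos, with no overlap, and rose 3.73-fold. The pair col-12 and col-13, which lie side by side on chromosome V between 10420867 and 10425069, are closely related and are used late in each larval molting cycle. For col-12 the larvae libraries had 46.9, 149, 190.4 and 135 CPM and the embryo libraries 5.09, 3.49, 4.29 and 3.51 CPM, and for col-13 the larvae libraries had 10.4, 91.1, 50.8 and 47.8 CPM and the embryo libraries 0.219, 0.0811, 0.0558 and 0.0450 CPM. Both were lowest in larvae replicate 1 and rose, col-12 by 31.7-fold and col-13 by 403-fold. By TPM the rise was 30.4-fold for col-12 but 40.0-fold for col-13. Without embryo replicate 1 the log2 fold change of col-13 was 9.49, in place of 8.66.

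Several known members were close to silent at both stages. The dauer collagen col-2 had 0 to 5 counts in larvae and 1 to 6 in embryos. Of the adult collagens, col-7 had 1 count in all larvae libraries together and 2 in all embryo libraries together, and col-62 had 4, 11, 4 and 4 counts in larvae and 0 in every embryo library, where a count of 0 allows up to 3. The genes col-36, col-55, col-127 and col-185 had no count in any library, and col-135, col-49 and col-40 had at most 6 counts in any library. For col-120 the larvae libraries had 3 to 6 counts and the embryo libraries 1 to 11. Other known members passed the filter but not the test: col-8, at 0.532 ± 0.355 CPM in larvae and 0.486 ± 0.436 CPM in embryos (SD, n = 4 each), and col-38, at 1.10 ± 0.485 and 0.800 ± 0.294 CPM.

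The most abundant collagens differed between the TPM and the counts. By TPM the leading members in larvae were col-10, at a mean of 6356 ± 2898 TPM, col-144, at 5718 ± 2609.8 TPM, col-3, at 5237 ± 2247 TPM, and col-117, at 5141 ± 2207 TPM (SD, n = 4 each). By CPM the same genes ranked 9, 18, 40 and 47 among the members in larvae. The pair col-117 and col-3 lie next to each other on chromosome IV, between 8822952 and 8826000. Their TPM ran together in every library: col-3 had 2094, 5865, 5566 and 7421 TPM in larvae and 563, 338, 426 and 416 TPM in embryos, and col-117 had 2056, 5745, 5473 and 7291 TPM in larvae and 552, 330, 419 and 406 TPM in embryos. The counts showed far less of both, at 90.4 ± 37.8 CPM in larvae and 3.26 ± 1.28 CPM in embryos for col-3 (SD, n = 4 each). HTSeq by default does not count reads that align to more than 1 place, and the part of such reads in these gaps was not tested.

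The gap was found in 16 of the 103 members with at least 1 CPM in larvae, where TPM per CPM was at least 3 times the median member's. All 16 have another col- gene within 10 kb, which holds for 36 of the 103. They include col-144, col-145 and col-10, in a row on chromosome V between 9159619 and 9165284, col-167, col-168, col-169 and col-170 on X, and col-92 and col-94 on III. The size ran between 3.16 times for col-159 and 429 times for col-94. All 16 were called higher in larvae from their counts. Their TPM were also higher in larvae, by 9.90-fold for col-145 to 245-fold for col-146, but the fold could differ from that of the counts: col-145 rose 3.08-fold in counts. Values of single genes in these groups are therefore uncertain, and in the silent class col-126 and col-127, adjacent on IV, averaged 3.44 and 3.40 TPM in larvae and 1.08 and 1.07 TPM in embryos. Below 1 CPM a gap was also seen in members with no other col- gene within 10 kb. The pseudogene col-66 had 0, 5, 0 and 0 counts in larvae but averaged 10.16 TPM there. With no count in any library, col-36 averaged 0.616 TPM in larvae.

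**Figure D3:**
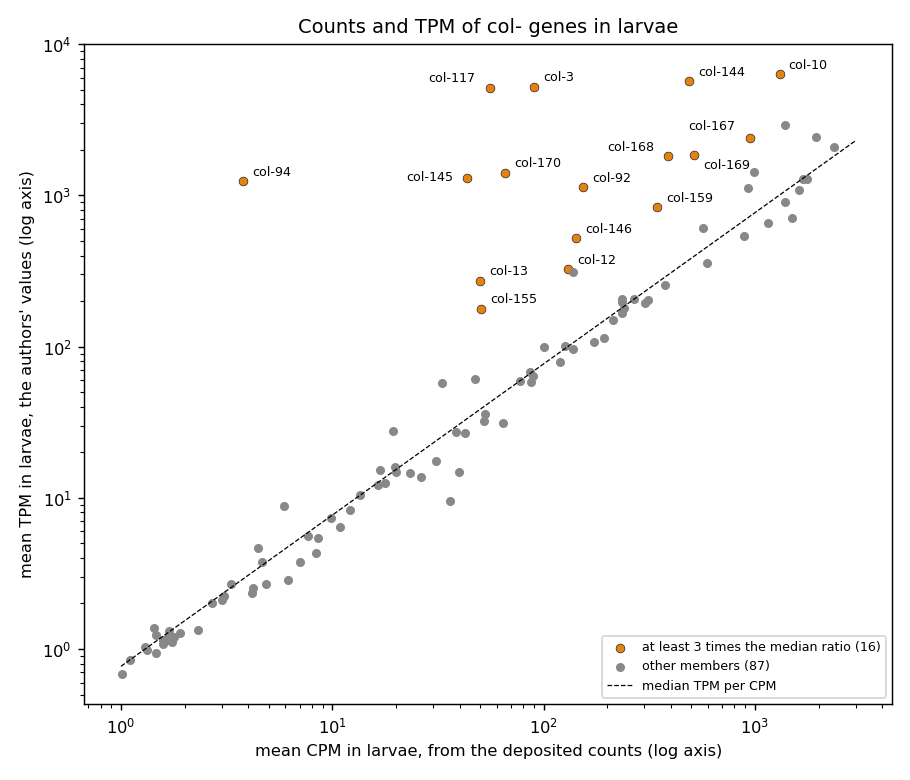
Mean CPM (horizontal, from the deposited counts) and mean TPM (vertical, the authors' values) in the 4 larvae libraries for the 103 members with at least 1 CPM, both on log axes. The dashed line is the median TPM per CPM of the members, and the 16 named orange points, col-94 and col-117 furthest out, lie at least 3 times above it.

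Neighbouring members were often alike, but not always. A total of 50 members lie in 21 groups with gaps of at most 10 kb. Of 29 neighbouring pairs, 16 (55.2%) were in the same class, against 39.7% of all pairs of members. The neighbours col-104 and col-105 on chromosome IV moved apart: col-104 was higher in larvae and col-105 was lower. For col-104 the means were 236 ± 159 CPM in larvae and 108 ± 12.9 CPM in embryos (SD, n = 4 each). The call of col-104 was lost in several alternatives, among them the one without larvae replicate 2. Between col-17 and col-73, col-20 had 39, 4, 35 and 6 counts in larvae and 0, 97, 0 and 49 counts in embryos, and it did not pass the test. By chromosome, 23 of the 26 members tested on V were higher and none was lower, with a median log2 fold change of 5.38 against 0.45 for all genes tested on V. On III, 8 of 10 were higher and none was lower, with medians of 6.19 and -0.18. On X, 12 of 20 were higher and col-165 was lower, with medians of 1.93 and 0.16. The medians were smaller on the remaining chromosomes, which held most of the lower calls. On I, 7 of 11 were higher and 3 lower, with medians of 1.14 and -0.31. On II, 7 of 14 were higher and 2 lower, with medians of 0.91 and -0.16. On IV, 18 of 28 were higher and 3 lower, with medians of 1.64 and 0.02. Shares called among all genes of a single chromosome were not computed. Over all chromosomes 36.9% of genes tested were higher and 37.2% lower.

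The 4 larvae libraries differed from each other far more in col- genes than in genes at large. Among the 70 members with a mean of at least 10 CPM in larvae, the median fold between the highest and the lowest larvae library was 4.05, against 1.47 for all 7839 genes of that level. For the 16 other named cuticle collagens of that level, described below, it was 3.92, so the wide spread was not particular to col- genes. In embryos the same measure was 1.44 for 29 members and 1.43 for all genes. Without larvae replicate 1 the median fold among the members in larvae was 2.15. Of the 70 members, 52 (74.3%) were lowest in replicate 1, where 35.8% of all genes were, and the median member stood in replicate 1 at 0.364 of the mean of the other 3 libraries, where the median gene stood at 0.949. The summed molting markers were highest in this library, though mlt-10 alone was not, as given above. Their part in the spread was not tested. With 4 libraries, no correlation between genes was computed, and likeness is given as the order of libraries.

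Within this spread the members fell into 3 groups by their lowest library. The 52 genes lowest in replicate 1 had median levels of 0.376, 1.34, 1.15 and 1.14 times their own larvae mean in replicates 1 to 4. This group holds col-10, col-12, col-13, col-14, col-34, col-125, col-144, col-147, col-93, col-142 and the col-166 to col-170 genes, and 49 of its 52 genes were higher in larvae than in embryos. Members entered all 3 groups by their larvae level, which favours genes higher in larvae, so this count is no trait of the group. In the other groups 8 of 11 and 6 of 7 were higher, and the share among all genes of that level was not computed. The most common single order, replicate 2 highest, then 3, 4 and 1, was shared by 16 members (22.9%), where 5.93% of all genes had it.

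A second group of 11 genes was lowest in replicate 4. Its median levels were 0.907, 0.979, 1.58 and 0.518 times the larvae mean in replicates 1 to 4. It holds col-17, col-41, col-73 and col-90, among the largest rises of all, and also col-89, col-109 and col-131, which did not pass the test of stage. Here 7 genes had the order replicate 3, 2, 1 and 4. The spread was narrower than in the group of 52, with a median fold between highest and lowest of 2.78 against 4.23, and col-17 and col-172 were among the 4 members with the smallest. For col-172 the larvae libraries had 23.3, 14.9, 19.1 and 9.90 CPM and the embryo libraries 11.8, 9.81, 9.54 and 8.99 CPM. They overlapped in 1 library, and its call of higher (adjusted p of 0.0196, edgeR) was lost with library totals and when larvae replicate 1 or embryo replicate 2, 3 or 4 was left out.

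The last group had 7 genes that were lowest in replicate 2, and it held col-176, col-101 and col-128, the most uneven of the 70 members. Its median levels were 1.77, 0.261, 0.515 and 1.10 times the larvae mean in replicates 1 to 4. The gene col-128 had 172, 16.7, 33.0 and 35.1 CPM in larvae, against 1.32, 1.30, 1.78 and 1.39 CPM in embryos. The gene col-46 had 129, 15.2, 35.0 and 32.4 CPM in larvae, against 1.68, 1.38, 1.67 and 1.39 CPM in embryos. Both stood far above their other larvae libraries in replicate 1, where most members were lowest, and col-153, with 875, 246, 297 and 272 counts in larvae, did the same. The gene col-149 was high in 2 libraries, with 552, 75.1, 103.0 and 517 CPM in larvae. In replicate 4, col-176 and col-101 stood apart: col-176 had 75.5, 36.4, 48.8 and 534 CPM in larvae, against 1.88, 0.973, 1.51 and 0.989 CPM in embryos, and col-101 had 5.66, 5.50, 6.45 and 75.2 CPM in larvae, against 0.463, 2.43, 0.446 and 0.854 CPM in embryos. DESeq2 gave no adjusted p for col-101. Without replicate 4 the log2 fold change was 5.30 for col-176, in place of 6.99, and 2.48 for col-101, in place of 4.47. Without replicate 1 it was 4.29 for col-128, in place of 5.47, and 4.16 for col-46, in place of 5.10. The seventh gene, col-99, was the most even of the 70, with a fold of 1.24 between its highest and lowest larvae library. Outside this group the fold reached 8.89 in col-115 and 8.78 in col-13, both lowest in replicate 1.

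**Figure D4:**
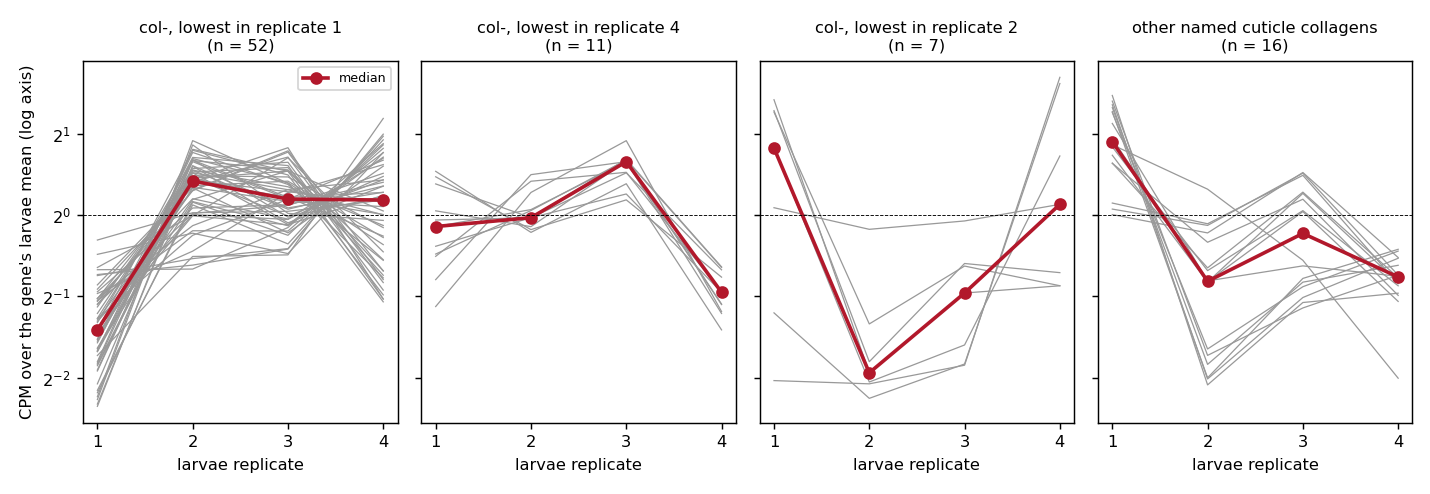
Level of each gene in the 4 larvae libraries as CPM over its own larvae mean (log axis), for the 52, 11 and 7 col- genes lowest in replicate 1, 4 and 2 and for 16 other named cuticle collagens. Each grey line joins the values of 1 gene and the red line joins the medians, which in replicate 1 are 0.376, 0.907 and 1.77 times the mean in the 3 col- groups.

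The named cuticle collagens outside the col- symbols are known from mutants with changed body shape. They were spread almost as widely over the larvae libraries, but mostly in another order of libraries. Of 21 listed, 17 were tested, and 10 were higher in larvae, 3 lower and 4 did not pass, with a median log2 fold change of 6.92. For this and the lists below, the shares of all genes tested were 36.9% higher and 37.2% lower. Of the 16 at 10 CPM or more in larvae, 13 were highest in replicate 1 and none was lowest there, where 23.7% of all genes of that level were highest in replicate 1 and 35.8% lowest. The furrow collagen gene dpy-7 had 504, 67.0, 114.0 and 154 CPM in larvae, the order of libraries that col-128 and col-149 had. The genes rol-6 and sqt-1 ran replicate 1, 3, 2 and 4, as col-90, col-131 and col-172 did, and dpy-13 was highest in replicate 3 and lowest in replicate 4, as col-17 and col-41 were. Of 11 collagen folding, cleavage and crosslinking genes tested, 5 were higher, none was lower and 6 did not pass, with a median log2 fold change of 0.40. The largest rises among them were in mlt-7, with 57.3 to 276.7 CPM in larvae and 9.44 to 18.7 CPM in embryos, and dpy-31, a protease gene, with 70.7 to 111 CPM in larvae and 20.5 to 36.9 CPM in embryos. In the larvae libraries mlt-7, a peroxidase that crosslinks cuticle, was highest in larvae replicate 2, at 57.3, 276.7, 129 and 92.3 CPM in larvae. The 3 basement membrane collagens, which lie under tissues and not in the cuticle, were all higher in larvae, with a median of 0.79. Of 7 regulators of molting, 2 were higher, 2 lower and 3 did not pass.

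Embryo libraries differed in a set of weak members, chosen after their values were seen. The genes col-19, col-20, col-106, col-119, col-122, col-124, col-140, col-178 and col-184 were each at least 5 times as high in embryo replicates 2 and 4 as in replicates 1 and 3, with 3 counts as the floor, and 12 genes of the whole table met this rule. The gene col-19, a marker of the adult cuticle, had 28, 3, 18 and 4 counts in larvae, against 1, 63, 1 and 43 counts in embryos. For col-119 the larvae libraries had 38, 1, 45 and 5 counts and the embryo libraries 0, 154, 0 and 54. In larvae 8 of the 9 had a higher CPM in both replicates 1 and 3 than in replicates 2 and 4. The exception was col-184, with 6.51, 1.40, 1.90 and 2.26 CPM, and the gap was narrow for col-106, with 1.89, 1.501, 2.65 and 0.752 CPM. The count of 8 takes together every order with replicates 1 and 3 on top, so its background is the total over these orders. Among all genes with a mean of at least 10 CPM in larvae, order 1, 3, 2, 4 held 4.25% and order 1, 3, 4, 2 held 4.16%. Order 3, 1, 2, 4 held a further 4.25% and order 3, 1, 4, 2 a further 2.99%. The 9 genes lie below that level, and no share was computed for genes as weak as these. The sums over the 9 genes were 364, 102, 351 and 131 counts in larvae and 6, 822, 4 and 416 counts in embryos. None passed the test of stage: col-119 had a log2 fold change of -0.43 ± 1.30 (SE) and col-19 one of -0.25 ± 1.08 (SE). Beside this, the vitellogenin genes summed to 1126, 38, 394 and 109 counts in larvae, and to 117, 5492, 51 and 369 counts in embryos. Major sperm protein genes summed to 25, 6, 139 and 5 counts in larvae, and to 16, 7, 6 and 137 counts in embryos. The part of adult tissue in these collagen counts was not tested. Without embryo replicates 2 and 4, an alternative added after seeing these values, 74 members were higher and 9 lower in larvae, and 64 of the 75 calls were kept.

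**Figure D5:**
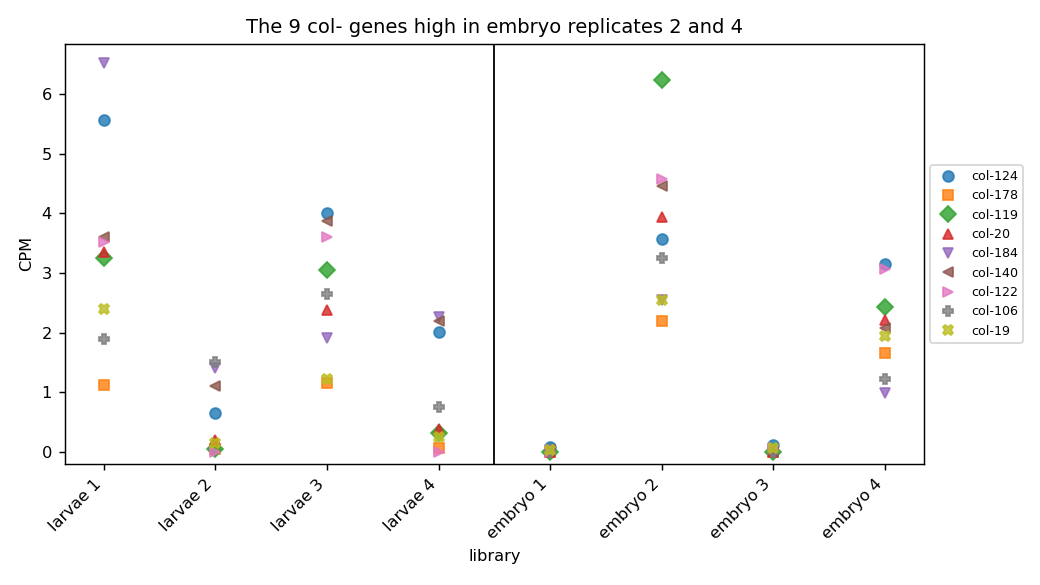
CPM of the 9 col- genes that are high in embryo replicates 2 and 4, in each larvae library (left) and each embryo library (right). Each symbol is a gene: all lie near 0 in embryo replicates 1 and 3, and most are higher in larvae replicates 1 and 3 than in larvae replicates 2 and 4.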

How the data were processed

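Single-end reads were aligned by the authors with Tophat (genome WS220), and HTSeq (0.6.1p1 in the submitters' processing notes) gave the counts. The deposited counts are whole numbers for 20389 genes, followed by 5 summary lines that belong to no gene and were left out. Reads outside all genes came to 3.26% to 6.06% per library and reads shared by overlapping genes to 0.861% to 1.07%. The deposited TPM values were normalized by the authors for length and library size. Their method is not given in the sources used here, although Cufflinks 2.2.0 is listed among the tools. A further 14 columns of the TPM table match no labelled sample and were not used, and the deposited tables of the authors' own strain comparisons (fold changes and p-values) were not used.

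Symbols came from a RefSeq gene table matched on sequence names, for 19879 genes. Gene loci in WS220 count starts from 0 on 6 of 6 chromosomes, judged by gene length, and 1 was added. Counts were tested with edgeR 4.0.16 (filterByExpr, TMM, quasi-likelihood test, no covariates) on all 8 libraries, with Benjamini-Hochberg adjustment over 13571 genes and a threshold of 0.05. A standard error is the log2 fold change over the root of the F statistic. The script was tested on simulated data. DESeq2 1.42.0 and limma 3.58.1 (log2 of TPM + 1) served as alternatives, with others for scaling, filter, class limits and left-out libraries. The labels do not say that libraries came from separate cultures, though the methods call them biological replicates, so p-values measure the spread between these samples. Counting limits cover counting error only. The replicate numbers are not stated to pair larvae with embryos, and the correlations of deviations were mixed in sign, so the block is only an alternative.

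Members and lists were chosen with earlier results of these data known. Genes were named by rule: the 6 most abundant of each class, the 8 largest rises and falls without overlap, the 6 largest and 4 smallest larvae spreads, 25 members known in the field (col-1 and col-6 were not found under those symbols), and neighbours. Others are examples chosen after their values were seen.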

Additional observations from a re-analysis of the deposited data

Results flagged for a closer look

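In 6 of 69 groups of 4 libraries examined for the named genes, 1 library lay far from the other 3. Chance gives about 1 such group in 20, here 3.45, but only for genes not chosen by their values. Some of the named genes, among them col-176, col-101 and col-128, were chosen for a large spread between larvae libraries. The 2 numbers therefore cannot be compared. In larvae replicate 4, col-176 reached 534 CPM, against 36.4 to 75.5 CPM in the other larvae libraries. In the same library col-101 reached 75.2 CPM, against 5.50 to 6.45 CPM. In larvae replicate 1, col-128 reached 172 CPM, against 16.7 to 35.1 CPM in the others. In larvae replicate 2, the embryo collagen col-165 reached 4.60 CPM, against 0.564 to 0.943 CPM. In embryo replicate 1, col-10 reached 92.0 CPM and col-167 reached 66.7 CPM, against 41.3 to 48.1 CPM for col-10 and 31.1 to 37.2 CPM for col-167 in the other embryo libraries.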

How the results depend on the processing

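No call was replaced by one in the other direction under any alternative. In limma on TPM, where the median of all genes moved to -0.72, 5 members called higher stood below 0 on the log2 scale without passing: col-65 at -0.18, col-113 at -0.08, col-104 at -0.03, and col-97 and col-172 within 0.01 of 0. The count of members higher in larvae ran from 67 to 77 when 1 library was left out, and that of members lower from 9 to 10. DESeq2 called 78 higher and 11 lower, and limma on TPM 61 higher and 11 lower. Without a filter on low counts 82 members were higher and 14 were lower. Against a fold change of 2, 62 and 7 passed. With the replicate block, 69 were higher and 8 lower, and larvae libraries did not resemble the embryo libraries of the same number (correlations of -0.15 to 0.07). The larva-only genes numbered 1 at limits of 0.5 and 0.1 CPM, 5 at limits of 5 and 0.5 CPM, 1 by TPM, 2 to 4 with 1 library left out, and 8 without embryo replicates 2 and 4, an alternative chosen after seeing the data. None was embryo-only in any of these. At 5 and 0.5 CPM 32 members were shared and 38 silent, and at 0.5 and 0.1 CPM 9 were silent. Among the 39 members whose larvae mean reached 100 CPM, replicate 1 was the lowest library for 32. The median fold among larvae ran from 2.15, without replicate 1, to 3.87 with 1 library left out.

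Of 455 alternatives for 38 named genes, 434 kept direction and call, 6 lost the call, 1 gained it and 14 changed sign, all in members that did not pass. These alternatives were DESeq2, its size factors in edgeR, library totals, the replicate block and single libraries left out. Limma on TPM and the test against a fold change of 2 were not among them. Of the named genes, col-14, col-172 and col-99 lost their calls against a fold change of 2, and col-14 and col-172 in limma on TPM. With library totals col-8 stood at -0.38 and col-38 at -0.028 on the log2 scale. With the replicate block col-119 stood at 0.50 and col-19 at 0.23. With 1 library left out, col-119 ran from -0.98 to 1.03, col-8 from -0.30 to 0.75 and col-19 from -1.12 to 0.55. The causes were not tested. Counts under about 10 per library in a stage, as in col-63 and col-94, limit what the depth can show.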
